A study of Mus musculus with 4 samples.

Results

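The 6 genes of the tendon lineage, Scx, Mkx, Tnmd, Egr1, Egr2 and Six2, were followed through the open chromatin of cultured mouse chondrocytes, and every peak that lay in one of these genes or within 50 kb of it was taken, on the RefSeq positions of GRCm38.p6. This gave 83 sites of the 172311 sites in the series, a site being the stretch formed by overlapping peaks of the 4 libraries. In ATAC-seq a transposase inserts sequencing adapters where the DNA is accessible. The chondrocytes came from knee cartilage of C57BL/6 mice of 0 to 4 days of age, and 2 libraries were made from primary cells kept in culture for less than a day (passage 0, P0) and 2 from cells carried to passage 8 (P8), which serve as the dedifferentiated cells. All 4 libraries share strain, tissue and culture medium, and the labels name no altered gene and no added agent. The labels do not say whether the libraries came from separate animals or cultures, so any difference between passages is set here against the spread between libraries, which may be technical. The peak lists separate the libraries without a replicate number, so within a passage they are named A and B.

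Tendon and cartilage arise from neighbouring progenitors of the limb, many of which make both Scx and the cartilage regulator Sox9. Scx (scleraxis) is a basic helix-loop-helix factor that marks tendon progenitors and works as a dimer with E proteins at E-boxes. Mkx (Mohawk) is a homeobox factor that supports collagen production in tendon, and Egr1 and Egr2 are zinc finger factors that switch on within minutes of mechanical or growth factor signals through serum response factor bound to CArG boxes. Six2 is a homeobox factor of limb tendons and of nephron progenitors that works with Eya proteins. Tnmd (tenomodulin) is a membrane protein of mature tendon cells, and its relative Cnmd (chondromodulin) is made by cartilage.

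The promoters are shown first, because 4 of the 6 genes had a peak in every library within 1 kb of an annotated start (of a gene end, where no start was annotated) and Tnmd had none. RefSeq promoter sequence was matched for 3 of the 6 genes, Tnmd, Egr2 and Six2. The 250 bases before the start of each are printed 5′ to 3′ on the strand of the gene, and capitals mark a match, on either strand, to 1 of 7 motifs. The GC box was searched as GGGCGG, which zinc finger factors of the Sp family bind. The CCAAT box was searched by the letters of its name, and the TATA box of core promoters as TATAAA. For the E-box, where helix-loop-helix dimers bind, the letters were CANNTG. The AP-1 site of Fos and Jun dimers was taken as TGANTCA. The EGR site was taken as GCGNGGGCG and can overlap a GC box, and the CArG box was searched by its usual pattern of paired C and G around A or T.
Six2, chr17:85688255-85688504, minus strand: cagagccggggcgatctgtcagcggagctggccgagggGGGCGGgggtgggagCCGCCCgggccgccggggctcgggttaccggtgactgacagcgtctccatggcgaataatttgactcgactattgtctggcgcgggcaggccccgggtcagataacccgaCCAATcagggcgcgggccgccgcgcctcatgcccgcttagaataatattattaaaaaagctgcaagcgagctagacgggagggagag
Egr2, chr10:67537316-67537565, plus strand: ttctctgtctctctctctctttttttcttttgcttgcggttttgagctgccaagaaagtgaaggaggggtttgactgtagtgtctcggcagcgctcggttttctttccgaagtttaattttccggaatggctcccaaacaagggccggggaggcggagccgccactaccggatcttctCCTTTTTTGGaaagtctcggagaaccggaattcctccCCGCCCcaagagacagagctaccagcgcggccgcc
Tnmd, chrX:133850758-133851007, plus strand: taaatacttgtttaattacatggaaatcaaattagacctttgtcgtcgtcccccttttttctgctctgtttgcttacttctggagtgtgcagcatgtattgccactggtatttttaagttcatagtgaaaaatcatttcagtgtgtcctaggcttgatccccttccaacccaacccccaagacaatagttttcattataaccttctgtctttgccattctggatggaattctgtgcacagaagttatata

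The Six2 promoter held 2 GC boxes and 1 CCAAT box, with a GC content of 64.8% and 26 CpG. A peak covered part of it in 4 of 4 libraries. The Egr2 promoter printed here held 1 CArG box and 1 GC box, with a GC content of 54.0% and 16 CpG, and also carried a peak in 4 libraries. The Tnmd promoter held no match to any of the 7 motifs, had a GC content of 38.4% and 2 CpG, and carried a peak in 0 of 4 libraries. Among 21262 promoters of 17491 protein-coding genes, 42.6% held a GC box, 35.4% a CCAAT box, 11.6% a TATA box, 62.8% an E-box, 6.13% an AP-1 site, 6.34% an EGR site and 1.39% a CArG box. Peaks in 4 libraries were found over 87.7% of the 5048 promoters with at least 20 CpG and over 7.60% of the 7170 promoters with under 5 CpG, so Six2 and Tnmd each fell with most promoters of their class.

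Egr2 has 5 annotated starts, and they were not alike. A second CArG box lay 62 bases before the start at 67537869 and is shown with the bases beside it, since the site that covers it was open in every library.
Egr2, chr10:67537787-67537816, plus strand: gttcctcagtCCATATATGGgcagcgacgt
By contrast, the 250 bases before the outermost start (chr10:67535249-67535498) held 4 GC boxes, 26 CpG and a GC content of 71.2%, and no library had a peak there. Of the promoters with at least 20 CpG, 2.99% had a peak in no library, so this start fell outside most of its class.

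The libraries held 145703 (P0 A), 119974 (P0 B), 89610 (P8 A) and 99784 (P8 B) peaks, with a median pileup of 13 to 16 tags at the summit, which stands for depth since read totals were not used here. The lowest local background was 1.42 and 1.18 tags at P0 against 1.02 and 0.979 tags at P8, read here as lower depth in both P8 libraries. A shallower library yields fewer peaks at equal accessibility. With all libraries brought to the lowest background, 139119 and 119193 peaks were kept at P0 and 89563 and 99757 at P8. The part of depth in the peak numbers was not tested further. Chondrocyte identity was checked by the markers: 11 of 14 chondrocyte markers, among them Col2a1 and Acan, had a start peak in all 4 libraries and 1 had none, where 59.5% of all protein-coding genes had one in all 4 and 31.1% had none. A start peak was found in all 4 libraries for 4 of 7 fibroblast and 1 of 6 macrophage and blood markers. The same held for 2 of 4 endothelial, 1 of 4 muscle and 2 of 4 bone markers. In that order of lists, 0, 4, 2, 2 and 1 markers had a start peak in no library. For some markers, Col2a1 among them, no start was annotated, and a peak near either gene end was counted instead. In whole cultures, fewer cells that open a site and a site less open in each cell cannot be told apart. With 2 against 2 libraries an exact two-sided permutation test cannot go below p = 0.333, so no comparison by this test could pass 0.05, and no other test between passages was run.

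The 6 genes together held 68 and 61 peaks at P0 and 52 and 59 at P8, a ratio of 1.16 ± 0.137 (exact two-sided permutation test, p = 0.333). Mkx, Tnmd and Egr1 had more peaks in both P0 libraries than in both P8 libraries, Egr2 had more in both P8 libraries, and Scx and Six2 overlapped. Among 21883 protein-coding genes, 44.9% had more peaks in both P0 libraries and 3.67% in both P8 libraries, so the direction at Egr2 was the less frequent one. It came from sites called in several pieces: counted as sites, Egr2 held 7 and 8 at P0 and 7 and 8 at P8. By sites, a count added after the data were seen, Mkx, Tnmd, Egr1 and Six2 were higher at P0 (56.6% of all genes) and 0 of the 6 at P8 (1.92%). Scaled to the peak total of each library, the ratio turned to 0.832, 0 of the 6 were higher at P0 (18.2% of all genes), and Scx and Egr2 were higher at P8 (33.3% of all genes).

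The numbers for Mkx were 10 and 9 peaks at P0 and 4 and 7 at P8, so the P8 libraries differed more from each other than the P0 libraries did. For Egr1 they were 17 and 15 at P0 and 13 and 12 at P8. Tnmd had 6 and 6 peaks at P0 and 5 and 3 at P8. These 3 genes went the way of most genes that separated the passages. Egr2 had 7 and 8 peaks at P0 and 9 and 10 at P8. Scx had 14 and 10 at P0 and 12 and 14 at P8, and Six2 had 14 and 13 at P0 and 9 and 13 at P8. With a window of 25 kb the calls for Mkx, Tnmd and Egr2 were lost, and Scx, with 10, 9, 11 and 11 peaks in the order given, was higher at P8. With 100 kb Mkx (P0) and Egr2 (P8) kept their calls, and Tnmd and Egr1 overlapped. Where the peak's nearest gene had to be the gene itself, Mkx alone kept its call. All 14 sites of its window lay nearest to Mkx, so this setting could not change its numbers. At Scx it left 1 of 15 sites and at Tnmd 1 of 9.

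**Figure D1:**
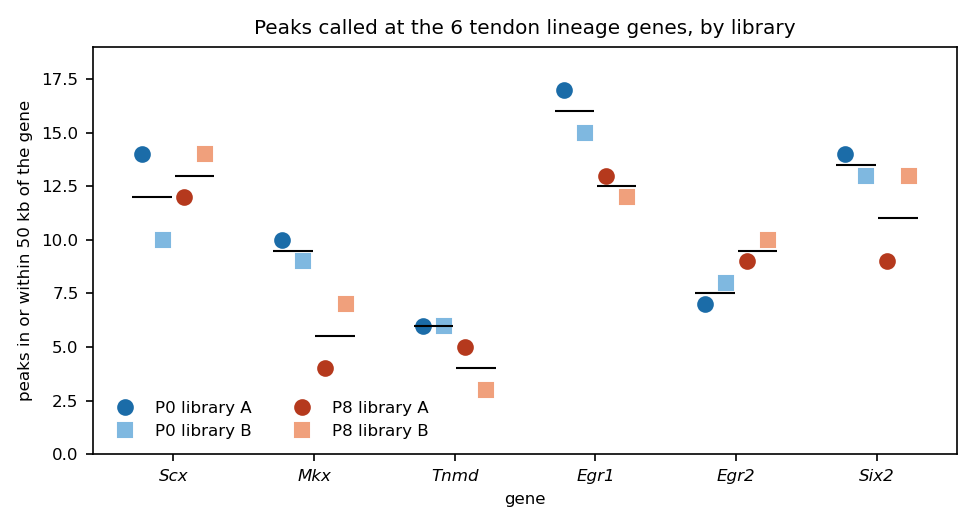
Number of peaks in or within 50 kb of each gene (vertical axis) in the 2 P0 libraries (blue) and 2 P8 libraries (red and orange), with the mean of each passage as a black line. Egr2 lies at 7 and 8 peaks at P0 and 9 and 10 at P8, some of them pieces of 1 site, and Mkx lies at 10 and 9 at P0 against 4 and 7 at P8.

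Of the 83 sites, 33 (39.8%) had a peak in all 4 libraries, against 32.4% of all sites. Peaks in both P0 libraries and in no P8 library were found at 12 sites (14.5%, against 17.0% of all sites), and the reverse at 2 sites (2.41%, against 1.84%). A single library held the peak at 25 sites (30.1%, against 33.1%). The 12 sites with peaks at P0 alone were spread over Egr1 with 4, Six2 with 4, Mkx with 3 and Tnmd with 1, and Scx and Egr2 had 0. Some lay close beside a site with a peak in all 4 libraries. At Egr1, chr18:34861565-34861733 lay beside chr18:34860292-34861479. At Six2, chr17:85680076-85680334 lay beside chr17:85679643-85680018, and chr17:85687553-85687769 beside chr17:85687834-85688683. Whether these are edges of the shared sites was not tested. The 2 sites with peaks at P8 alone lay at Scx and Egr1. The nearest protein-coding gene was one of the 6 at 40 of the 83 sites, and 21 sites overlapped one of the 6. At the border of the windows, the farthest site inside lay 49828 bp from Mkx with a peak in 2 libraries and the nearest outside lay 50790 bp from Egr2 with a peak in 2 libraries.

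**Figure D2:**
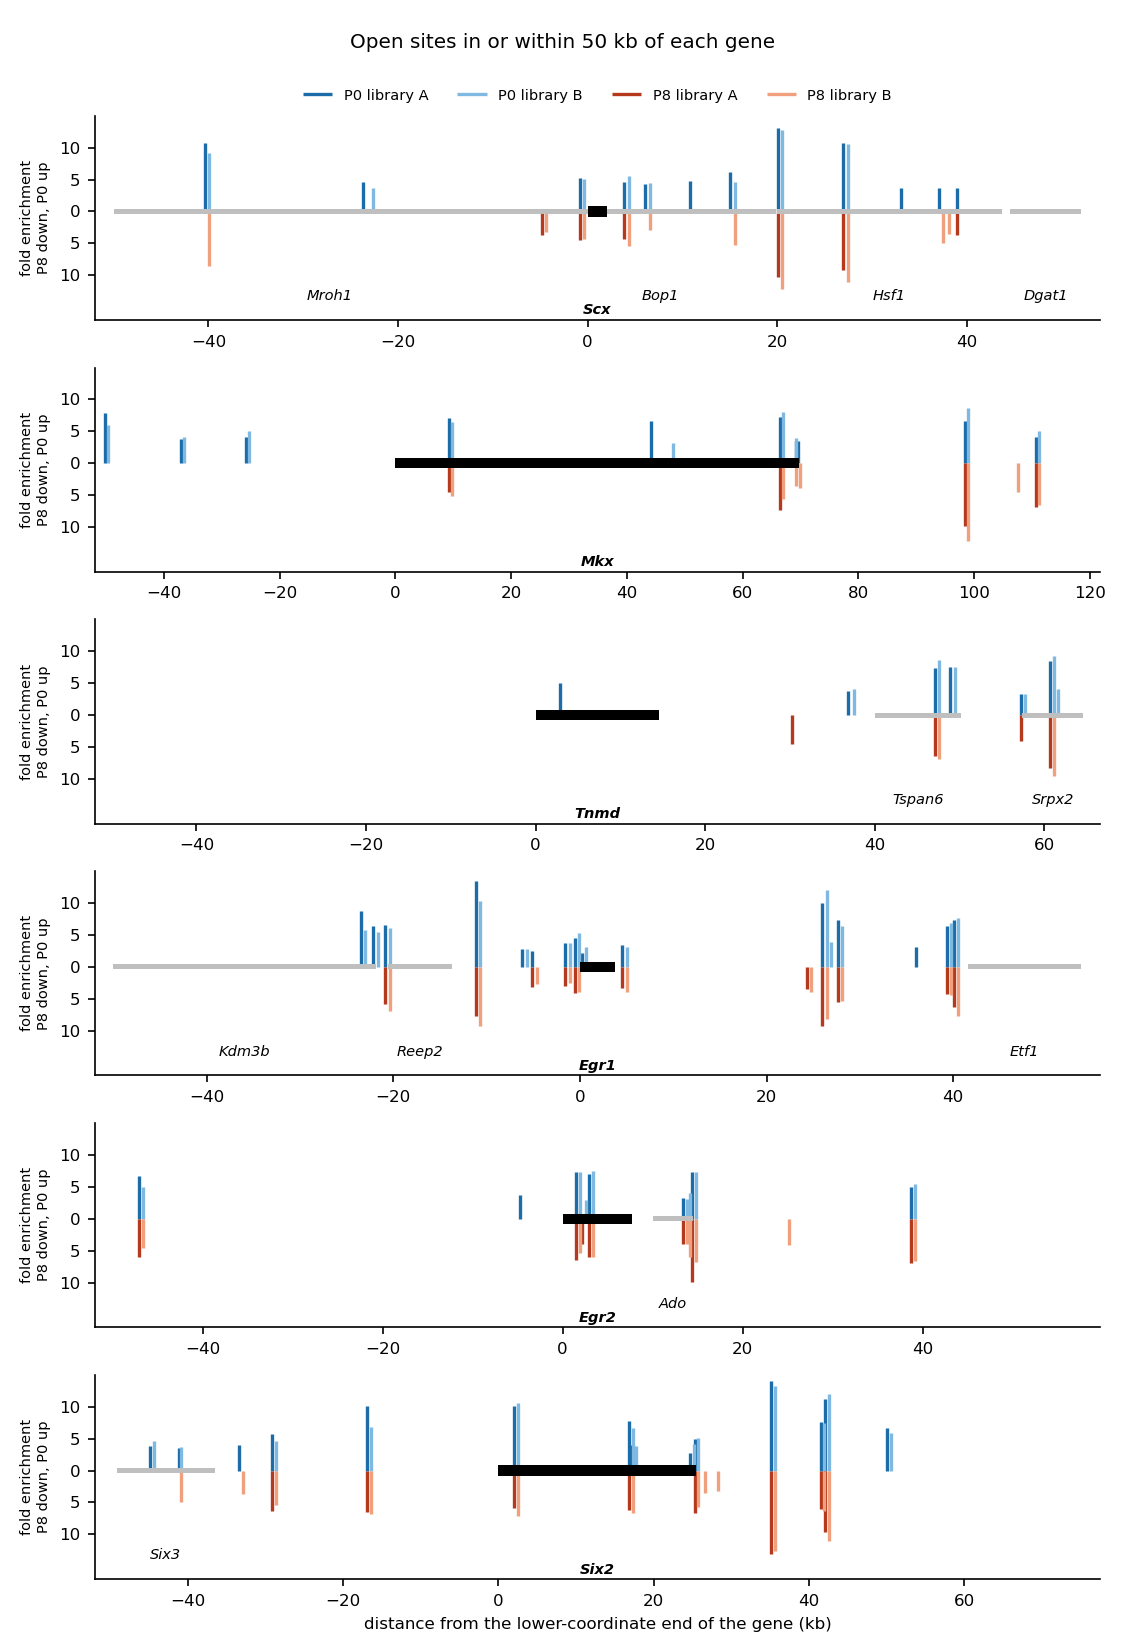
Sites in or within 50 kb of each gene, by distance in kb from the lower-coordinate end of the gene (black bar; grey bars are other protein-coding genes). Line heights give the highest fold enrichment of a peak over local background, upward for P0 libraries and downward for P8 libraries; the 3 sites below Mkx have upward lines alone, and Tnmd itself carries 1 line, of P0 library A.

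At the 33 sites with a peak in all 4 libraries, strength was compared by the fold enrichment, the pileup at the summit over the local background of the same library. Both P0 libraries were above both P8 libraries at 17 sites (against 49.9% of all 55890 shared sites), both P8 libraries were above at 5 (against 11.6%), and 11 overlapped. The median log2 ratio of P0 over P8 was 0.18, beside 0.20 over all shared sites. When the pileup was divided by the background of the whole library instead, the split was 13 higher at P0 (against 50.1% of all shared sites), 8 higher at P8 (against 15.7%) and 12 overlapping.

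**Figure D3:**
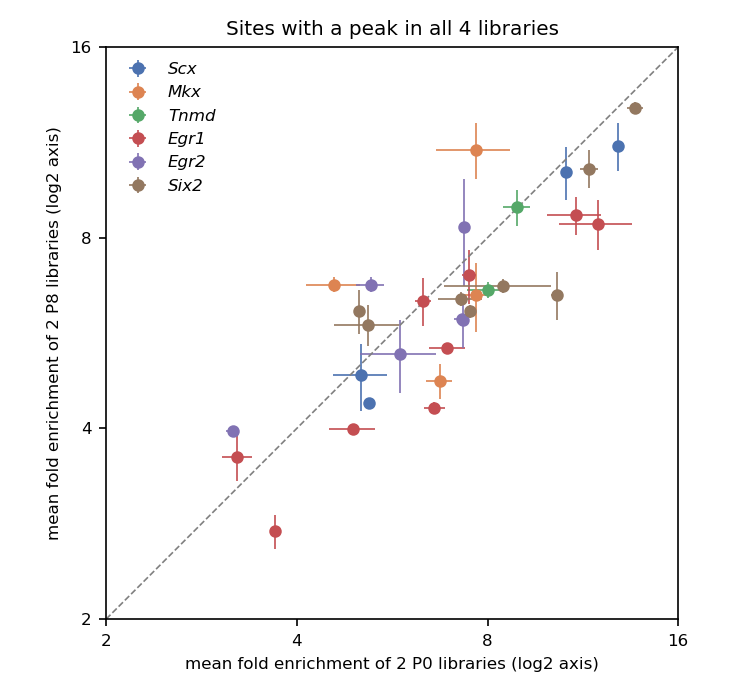
Mean fold enrichment of the 2 P0 libraries (horizontal, log2 axis) and of the 2 P8 libraries (vertical, log2 axis) at the 33 sites with a peak in all 4 libraries, coloured by gene, with bars from the lower to the higher library and a dashed line of equality. Most points lie under the line, and both Mkx sites above its upper end lie over it with log2 ratios of -0.52 and -0.56.

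Scx (gene ID 20289, chr15:76457411-76459468) lies within Bop1, a gene of ribosome assembly, so peaks over the 2 genes cannot be assigned to one of them. The site over its lower end (chr15:76456025-76457614) had a fold enrichment of 5.26 and 5.12 at P0 and 4.40 and 4.37 at P8, a log2 ratio of 0.24. Neither passage overlapped the other, as at 61.8% of 13010 genes with a start peak in 4 libraries, where P0 was higher, while at 4.14% P8 was higher. This site was made of 2 peaks in each P0 library and of 4 and 3 peaks in the P8 libraries, which adds to the P8 count without a new site. The strongest site of the window, over the adjoining ends of Bop1 and the heat shock factor gene Hsf1, had 13.0, 12.7, 10.2 and 12.1. A site with peaks at P8 alone (chr15:76452708-76452905) lay 4506 bp below Scx over Mroh1, with 3.67 and 3.27, values among the lower ones of the window.

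Mkx (gene ID 210719, chr18:6934966-7004779) differed by side. The 3 sites below its lower end, at 25457, 36718 and 49828 bp, had peaks in both P0 libraries and in no P8 library, with 4.14 and 5.03, 3.73 and 4.12, and 7.86 and 5.95. The first 2 had pileups of 8 to 10 tags, above those of 3.36 to 17.1% of the peaks of their library. Whether the P8 libraries missed such sites through lower depth was not tested. Above its upper end the direction was the opposite. The site at 28887 bp had 6.62 and 8.70 at P0 and 9.89 and 12.1 at P8, with pileups of 15, 18, 19 and 23 tags, so the P8 libraries were higher by count of tags as well. At 41112 bp the fold enrichment reached 4.14 and 5.03 at P0, against 6.92 and 6.57 at P8. Both sites lay in the long noncoding RNA gene Gm46633, with log2 ratios of -0.52 and -0.56, and both stayed higher at P8 with the background of the whole library (-0.71 and -0.75).

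Within Mkx, a site at chr18:6944256-6944681 had 7.04 and 6.41 at P0 and 4.45 and 5.05 at P8, a log2 ratio of 0.50. Of this site, 426 and 336 bp were called as peak at P0 against 92 and 80 bp at P8, and 99.2% of all shared sites had a ratio of P8 to P0 length at least as high as its 0.226. The pileups were 16 and 13 tags at P0 and 8 and 9 at P8. Those at P8 were above only 5.17 and 11.7% of the peaks of their library. Whether the low pileups account for the short lengths was not tested. Another site in the gene had 7.27, 8.07, 7.30 and 5.67 and overlapped. At the upper end, peaks of 3.49, 3.89 and 3.87 were called within 1 kb in P0 library A, P0 library B and P8 library B, at positions that did not overlap, and P8 library A had none. A further peak of P8 library B overlapped that of P0 library B. Over the gene end itself lay a further peak of P0 library A alone (chr18:7004734-7005042), with 3.48.

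Tnmd (gene ID 64103, chrX:133851008-133865577) had 1 peak in the gene, in P0 library A, with a fold enrichment of 4.97 and a pileup of 11 tags. No library had a peak within 1 kb of its start, as was so for 31.1% of protein-coding genes. The other 8 sites of its window lay above its upper end, nearest to Tspan6 and Srpx2. A site over Tspan6 (chrX:133899902-133900453) had 7.61 and 7.61 at P0, with pileups of 33 and 27 tags, and no peak at P8. The strongest site, over Srpx2, had 8.47, 9.32, 8.34 and 9.53, and the passages overlapped. Its relative Cnmd had a start peak in all 4 libraries (4.40, 5.18, 5.22 and 4.49), again with overlap, while its window held 25 and 19 peaks at P0 and 13 and 12 at P8.

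Egr1 (gene ID 13653, chr18:34861207-34864956) carried high pileups on a high background. At the site over its lower end (chr18:34860292-34861479) the pileup reached 60 and 56 tags at P0, against 44 and 47 at P8, above that of 96.5 to 98.3% of the peaks of each library. The local background there reached 12.6 and 9.71 tags at P0, against 10.1 and 11.2 at P8, above that of 99.4 to 99.7% of peaks. The fold enrichment over it was 4.49 and 5.32 at P0, against 4.06 and 3.93 for the P8 libraries, with a log2 ratio of 0.30. With the background of the whole library the ratio was -0.02 and the passages overlapped, so the direction at this gene end depends on the scale.

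Just past the upper end of Egr1, 450 bp away, the called length was greater at P8. The site chr18:34865406-34866565 covered 303 bp in 3 pieces in P0 library A and 204 bp in P0 library B, against a single peak of 1058 and 1098 bp in the P8 libraries. The ratio of P8 to P0 length was 4.25, and 11 of 55890 shared sites had a ratio at least as high. At 5.48% of shared sites both P8 libraries covered more bases than both P0 libraries, and at 58.4% the reverse held. Among the 33 sites of the 6 windows this was the 1 site wider at P8, and 20 were wider at P0. Its pileup reached 29 and 17 tags at P0, against 39 and 43 at P8, although the P8 libraries had the lower library background. The fold enrichment of 3.40, 3.05, 3.30 and 3.91 overlapped. The local background reached 7.83 and 4.91 tags at P0, against 11.1 and 10.3 at P8, and its part in the called length was not tested. Called length was examined after the values of this site had been seen.

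**Figure D4:**
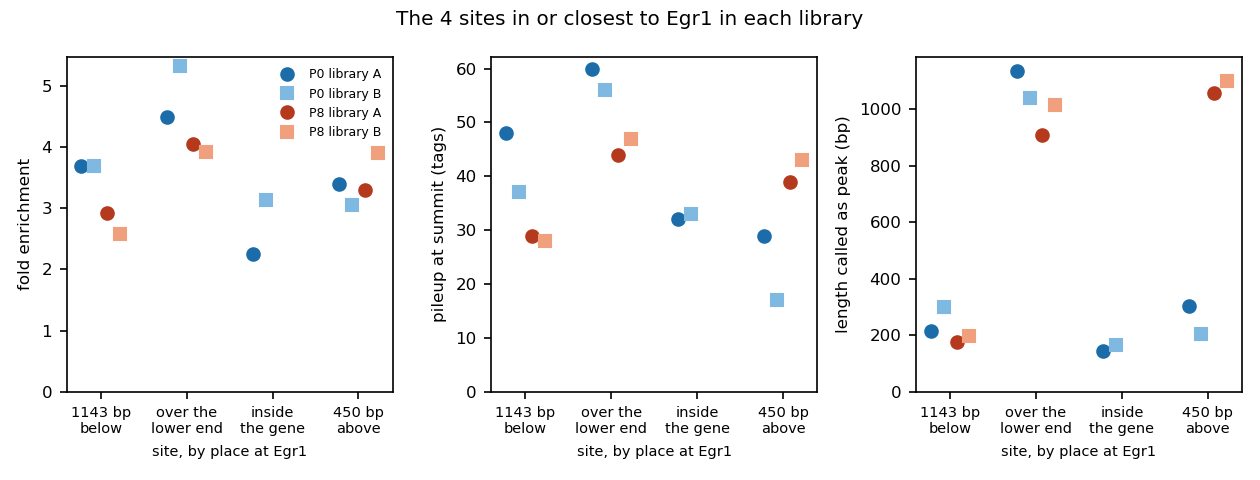
Fold enrichment, pileup at the summit in tags and length called as peak in bp (vertical axes, from 0) at the 4 sites in or closest to Egr1, each point 1 library. At the site 450 bp above the gene the P8 libraries reach 1058 and 1098 bp against 303 and 204 bp at P0, while their fold enrichment overlaps that of P0.

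Farther from Egr1, 4 of 6 shared sites were higher at P0 and the others overlapped. The site 10759 bp below the gene had 13.5 and 10.4 at P0 and 7.66 and 9.19 at P8, the strongest of the window by mean. Another, 35541 bp above the gene and close to Etf1, had 6.34 and 6.85 at P0 and 4.23 and 4.40 at P8, a log2 ratio of 0.61. Of 9 shared sites at Egr1, 6 were higher at P0, 0 at P8 and 3 overlapped, and with the background of the whole library 3 were higher at P0, 1 at P8 and 5 overlapped. The site with peaks at P8 alone lay 20725 bp above the gene with 3.52 and 3.88.

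Egr2 (gene ID 13654, chr10:67534469-67542188) had as many sites at P8 as at P0, with 2 of them in more pieces. The site over the end of Ado was called as 1, 1, 2 and 3 peaks and the farthest one above the gene as 1, 1, 2 and 1. The site over the printed promoter and the second CArG box (chr10:67537288-67537920) had 7.08 and 7.49 at P0 and 5.92 and 5.97 at P8, and a site nearer the lower end (chr10:67536009-67536334) had 7.36 and 7.27 at P0 and 6.52 and 5.35 at P8. Both were higher at P0, with log2 ratios of 0.29 and 0.30, which were 0.04 and 0.07 with the background of the whole library, where the site over the promoter overlapped between passages. Higher at P8 were a site over Ado, an oxygen-sensing dioxygenase gene, with 3.24, 3.09, 3.91 and 4.01, and a site 31053 bp above the gene with 4.97, 5.49, 6.92 and 6.57. The pileups were low, with 11, 9, 10 and 11 tags at the Ado site, where the passages overlapped, and 11, 11, 13 and 12 at the other. Both sites kept their direction with the background of the whole library (-0.45 and -0.55), which was itself lower at P8.

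Six2 (gene ID 20472, chr17:85662736-85688254) is read from the minus strand, so its upper end is its start. The site over the start and the printed promoter (chr17:85687834-85688683) had 5.00 and 5.05 at P0 and 6.61 and 5.63 at P8, a log2 ratio of -0.29. It was the 1 start among the 4 genes with a peak in every library that was higher at P8. Over all 13010 genes with such a start peak, 4.14% were higher at P8 and 61.8% at P0. The pileups at the Six2 start were 23, 20, 20 and 17 tags, and the called length was 685, 850, 469 and 491 bp. The local background was lower at P8 (3.80, 3.16, 2.18 and 2.20 tags). With the background of the whole library P8 remained higher (-0.16). Near the other end of the gene, a site (chr17:85664695-85665260) had 10.1 and 10.5 at P0 and 5.93 and 7.07 at P8, a log2 ratio of 0.66, the largest of the 33. The strongest site of the 6 windows lay 9699 bp upstream of Six2, with 14.1, 13.3, 13.1 and 12.5, above 95.9% of shared sites by mean. It was higher at P0 by fold enrichment and higher at P8 with the background of the whole library (-0.15).

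Genes that work with the 6 were counted by their windows, and longer genes have longer windows, so counts are compared within a gene. Of 14 partners of the regulators, 10 had more peaks in both P0 libraries and 0 in both P8 libraries, with the largest differences at Eya2, a partner of Six2 (32 and 21 at P0, 15 and 18 at P8), and Tcf4, an E protein (60 and 43, then 26 and 39). Of 14 signals upstream of tendon formation 7 were higher at P0, led by the TGF-beta receptor gene Tgfbr2 (19 and 18, then 7 and 11) and Gdf7 (19 and 14, then 10 and 10). Of 18 tendon matrix genes 7 were higher at P0, led by Comp (28 and 28, then 13 and 17), which cartilage also makes, and Col14a1 (33 and 22, then 18 and 18). Of 6 sheath and progenitor genes 4 were higher at P0, led by Nes (24 and 23, then 12 and 15), with Ccn2 (16 and 15, then 8 and 11) and Pdgfra (18 and 12, then 8 and 10) tied in second place. None of these 52 genes was higher at P8, and the shares read against 44.9% higher at P0 and 3.67% at P8 among all genes. These are raw peak numbers, and the lists were not recounted as a share of all peaks of the library. That setting gave 18.2% of all genes higher at P0 and 33.3% at P8, so the counts do not separate these genes from the peak totals.

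Among 9 tendon cell markers, which include the 6 genes, 6 were higher at P0 and 1 at P8, with Thbs4 (12 and 10, then 3 and 6) and Kera (9 and 4, then 1 and 3) the largest. Over all protein-coding genes 44.9% were higher at P0 and 3.67% at P8, and the marker counts too were not scaled to the peak totals. The 14 chondrocyte markers had 13 higher at P0 and 0 at P8. Sox5 (79 and 59, then 32 and 38) and Sox6 (82 and 58, then 39 and 34), partners of Sox9, led that list. The mean peak number at P0 in its windows ran from 16 (Sox9) to 70 (Sox6), against a median of 11 over all genes. Whether windows with more peaks separate the passages more often was not tested. Of 7 fibroblast markers 2 were higher at P0 (Pdgfra and Prrx1), of 6 macrophage and blood markers 2 (Ptprc and Cd68), of 4 endothelial markers 1 (Pecam1), of 4 muscle markers 3 (led by Myf5 and Des) and of 4 bone markers 4 (led by Runx2 and Ibsp), with 0 higher at P8 in these lists.

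**Figure D5:**
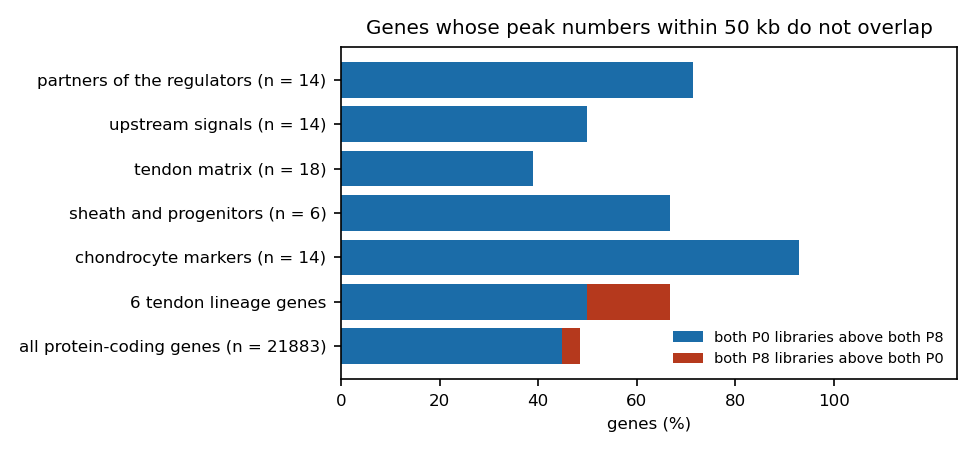
Share of genes (%) whose peak numbers within 50 kb were higher in both P0 libraries (blue) or in both P8 libraries (red), for 5 lists, the 6 tendon lineage genes and all 21883 protein-coding genes. A red part is seen for the 6 genes, from Egr2, whose call is lost when sites are counted, and for all genes (3.67%).

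The genes most like each of the 6 were found by the Euclidean distance over 8 values, the peak number and the start fold enrichment in 4 libraries on a log2 scale. Scx was closest to Fosl2 (0.307) and Rpl23a (0.369), Egr1 to Hes1 (0.275) and Tnfrsf12a (0.280), and Egr2 to Hnrnpu (0.232) and Nfkbid (0.327). Six2 was closest to Gapdh (0.300) and Ing1 (0.432), and Mkx to Sypl2 (0.547) and Clic6 (0.654). Tnmd had the same 8 values as Fabp9 and Gm10318, which had 6, 6, 5 and 3 peaks and none at a start.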

How the data were processed

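ATAC-seq peaks of 2 P0 and 2 P8 libraries were used. The authors aligned 50 bp paired-end reads with Bowtie2 to mm10 (build and tools per the submitters' processing notes), and called peaks with MACS2 at default parameters in each library; versions were not given in the sources used here. The deposited values of a peak are its summit pileup, a signal counted in tags without scaling for depth, and the fold enrichment, which is the ratio of pileup plus 1 to local background plus 1. They also deposited the −log10 of the p-value and of the q-value, where 1 header in each list was damaged and was read from the column's place. A further deposited table holds the authors' own comparison (log2 fold changes, p-values and FDR) and was not used. Unused columns of per-library values numbered 0.

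The local background was computed from pileup and fold enrichment, and the −log10 p recomputed from it differed from the deposited one by at most 0.00019. Peaks of the 4 libraries that overlapped by at least 1 bp were merged into sites. Windows reach 50 kb from either gene end in the RefSeq table of GRCm38.p6. A start peak lies within 1 kb of an annotated start, or of either gene end where no start was annotated. Of the 6 genes this applied to Scx, Egr1 and Mkx, and it also applied to some of the listed genes. A passage was called higher where both of its libraries lay above both of the other. Ratios are of means with the SD carried over from n = 2, and the intervals of counting error were not computed because the files hold peaks and not reads. The 6 genes and the lists were chosen with earlier results of these data known. Besides the 6, genes were named where a site lay over or nearest to them, where they had the 2 largest differences of a list in a direction without overlap, or where they were the 2 most like a gene. Col2a1, Acan and Cnmd were named as markers, outside that rule. Counting, merging and calls were tested on simulated data. For matched background, peaks were kept with a −log10 p of at least 3.38 at the lowest background of the 4 libraries. The work used matplotlib 3.10.9, scipy 1.17.1, pandas 2.3.3 and numpy 2.4.6 under Python 3.11.15.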

Additional observations from a re-analysis of the deposited data

How the results depend on the processing

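Of 78 alternative values, 62 kept their direction (counts within 1.5 times, and enrichments within 1 SD between libraries), 14 moved further and 2 reversed. The causes were not tested beyond what each setting changes. Some of the 62 had little room to change. Counting peaks by their summit left every peak number as it was. Leaving out a library eases the demand on a site held by all libraries. The ratio of peaks, 1.16, reversed to 0.832 as a share of all peaks of the library and was 1.09 to 1.24 with 1 library left out. The log2 ratio at the Egr1 start reversed to -0.022 with the pileup over the background of the library. Where only sites nearest to one of the 6 genes were kept, 18 sites had peaks in all 4 libraries and 0 in both P8 libraries alone. Leaving out 1 library gave 33 to 36 sites in all libraries and 13 to 23 with peaks at P0 alone (23 without P0 library B). Sites with peaks at P8 alone were then 2 to 8 (8 without P8 library A, 4 without P8 library B). Sites with peaks at P8 alone numbered 8 with a reciprocal overlap of 50% and 0 with a −log10 q of at least 5. Members with more peaks in both P0 libraries were 3, and 0 as a share of the library (18.2% of all genes) and 1 with a window of 25 kb (37.6%). Those with more at P8 were 1, and 2 as a share of the library (33.3% of all genes) and 0 when sites were counted in place of peaks (1.92%), a setting chosen after seeing the data. With a window of 25 kb the count at P8 was again 1 (4.09% of all genes), but the gene was Scx in place of Egr2. The 6 genes together overlapped between passages at 25 and 100 kb. At the starts, Scx gave 0.14 within 3 kb and 0.20 with the background of the library, and Egr2 gave 0.0017 with the latter. Within 1 SD, but by over 1.5 times, Egr1 fell to 0.17 without P0 library B and Six2 weakened to -0.16 without P8 library A. Peaks at matched background kept the calls of the 6 genes. No paired analysis was possible because the peak lists carry no replicate numbers, and the fit with a replicate block was not run. Depth limits weak sites most: a peak missing in a shallower library does not show closed chromatin.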
